A study of Mus musculus with 2 samples.

Results

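Of the 5587 gene symbols in a list of E2F1-bound regions from mouse hepatocytes, 28 code for enzymes that process drugs, steroids and related compounds. They were taken by symbol: the cytochromes P450 (Cyp), the glucuronosyltransferases (Ugt), the sulfotransferases (Sult), the glutathione S-transferases of the alpha, mu, pi and theta classes (Gsta, Gstm, Gstp, Gstt), the flavin monooxygenases (Fmo) and the carboxylesterases (Ces). These 28 genes carried 36 of the 5667 listed peaks. The rule used the symbol and a place in the list, and it was written with earlier results of these data known.

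The cells were primary hepatocytes of C57Bl6J mice, infected with the E2F1-carrying adenovirus Ad-E2F1 and harvested 36 h later. Chromatin immunoprecipitation with sequencing (ChIP-seq) used the anti-E2F1 antibody c-20 (sc-193), and input chromatin of equally infected cells, taken without an antibody, served as its reference. Both records therefore carry the vector, the labels do not say which promoter drives E2F1 in it, and uninfected cells were not analysed here. The labels hold 1 record of E2F1 ChIP and 1 of input; the series text speaks of 2 replicates, each joining several ChIPs, but the peak list gives a single value per peak. No value below has a replicate error, no test was run, and the read depth of the libraries is unknown. The records hold DNA, so the labelled cell type could not be checked against expressed markers.

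Hepatocytes clear foreign and endogenous lipid-soluble compounds in steps. Cytochromes P450 and flavin monooxygenases add oxygen, carboxylesterases cut ester bonds, and transferases then attach glucuronic acid, sulfate or glutathione. Many of these genes lie in arrays of close relatives that arose by duplication, and nuclear receptors are known to control a number of them. E2F1 itself is best known for activating genes needed for DNA replication, often through sites in promoters that hold a run of T followed by C and G.

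Peaks at these genes were few, mostly weak and mostly away from promoters. The RefSeq gene table holds 185 protein-coding genes under these names, and 28 of them (15.1%, exact binomial 95% interval 10.3% to 21.1%) had any listed peak, against 24.7% of all 21896 protein-coding genes. A promoter peak, defined by a summit within 1000 bp of the transcription start site (TSS), was present at 6 of the 185 genes (3.24%, interval 1.20% to 6.93%), against 13.1% of all protein-coding genes. The intervals treat genes as independent draws and cover counting error alone. The 6 genes were Cyp1b1, Cyp2b10, Cyp2r1, Cyp46a1, Gstm1 and Gstm7.

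The promoters of the genes that matter most here differ widely in sequence. The windows printed run from 250 bases before to 50 bases after the RefSeq start (assembly GRCm38.p6), 5′ to 3′ along the gene. They show a pair of promoters with a peak over them that hold an E2F-like word. Cyp2r1 stands for a promoter with a strong peak whose window holds no such word. Its summit lay 428 bp inside the gene, beyond the window. For contrast, the last window is the promoter of a gene whose listed peak lay beyond its 3′ end. Capitals mark the letters GCGGGAA, the reverse complement of TTCCCGC; lower case is the rest.
Cyp46a1 (chr12:108334066-108334365, + strand): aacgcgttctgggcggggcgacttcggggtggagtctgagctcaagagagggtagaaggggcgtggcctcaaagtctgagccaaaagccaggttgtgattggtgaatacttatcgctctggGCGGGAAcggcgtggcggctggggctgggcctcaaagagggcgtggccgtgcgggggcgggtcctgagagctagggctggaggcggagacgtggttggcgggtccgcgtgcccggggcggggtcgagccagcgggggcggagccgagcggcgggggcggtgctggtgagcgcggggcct
Cyp2b10 (chr7:25897408-25897707, + strand): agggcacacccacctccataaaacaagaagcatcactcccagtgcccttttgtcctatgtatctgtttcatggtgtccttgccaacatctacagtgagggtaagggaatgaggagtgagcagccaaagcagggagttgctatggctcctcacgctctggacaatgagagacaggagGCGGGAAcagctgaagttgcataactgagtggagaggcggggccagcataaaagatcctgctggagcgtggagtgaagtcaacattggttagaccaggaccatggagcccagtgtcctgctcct
Cyp2r1 (chr7:114562923-114563222, - strand): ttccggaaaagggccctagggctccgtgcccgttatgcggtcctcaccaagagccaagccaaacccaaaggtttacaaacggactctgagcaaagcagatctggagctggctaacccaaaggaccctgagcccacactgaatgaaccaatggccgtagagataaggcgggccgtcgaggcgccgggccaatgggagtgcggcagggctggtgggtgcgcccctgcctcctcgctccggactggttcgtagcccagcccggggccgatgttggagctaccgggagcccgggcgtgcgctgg
Ugt2b38 (chr5:87424154-87424453, - strand): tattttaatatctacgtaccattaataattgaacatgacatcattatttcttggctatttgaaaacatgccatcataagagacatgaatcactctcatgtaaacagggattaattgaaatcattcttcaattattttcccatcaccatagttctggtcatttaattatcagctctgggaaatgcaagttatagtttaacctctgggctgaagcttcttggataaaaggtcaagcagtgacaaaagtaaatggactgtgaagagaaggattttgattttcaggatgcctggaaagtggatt

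By fold, the highest peaks lay at Cyp26a1, Cyp26b1, Cyp2r1 and Cyp46a1, cytochromes P450 that act on retinoic acid, vitamin D and cholesterol. Fold is the authors' ratio of ChIP tags to the background expected from input, and tags are the reads counted in the called region. Peak positions are on mm9. By tags and pileup height the order differed, as Cyp46a1 had 79 tags and a height of 58. Gstt2, with a fold of 9.93, had 280 tags and a height of 131. Cyp2b10, with 8.66, had 263 tags and a height of 82. Cyp26a1, which breaks down retinoic acid, had the highest fold of all 36 peaks, 17.13 with 338 tags (chromosome 19, 37770899 to 37771199). The fold was higher than that of 96.7% of all listed peaks. Its summit lay 1249 bp upstream of the TSS, in the authors' promoter class but just outside the 1000 bp used here, and the called region ended 643 bp before the TSS. A further peak of Cyp26a1, with a fold of 6.05 and 226 tags, lay past the gene end, 4752 bp downstream of the TSS (chromosome 19, 37776900 to 37777200). The gene was thus flanked by a strong and a weaker peak, with no listed peak summit between them.

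Cyp26b1, the related retinoic acid hydroxylase, came next with a fold of 14.70 and 170 tags (chromosome 6, 84540208 to 84540508). This summit lay inside the gene, 3383 bp downstream of the TSS, so the strongest listed peaks of both genes lay near the start and not on it. The third gene of the subfamily, Cyp26c1, is the coding neighbour of Cyp26a1 in the RefSeq gene order and had no listed peak.

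Cyp2r1, the vitamin D 25-hydroxylase of the liver, had a fold of 12.10 and the most tags of the 36 peaks, 482 (chromosome 7, 121705909 to 121706209). The summit stood 428 bp inside the gene, and the called region reached from 1679 bp before to 1914 bp after the TSS. Cyp24a1 and Cyp27b1, which inactivate vitamin D and complete its activation, had no listed peak.

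Cyp46a1, the cholesterol 24-hydroxylase known from neurons, had a fold of 11.06 with only 79 tags, in a short region of 1008 bp (chromosome 12, 109572210 to 109572510). Its summit was 227 bp upstream of the TSS. Cyp46a1 and Cyp2r1 were close in fold, yet Cyp2r1 held far more tags over a region of 3593 bp. Cyp7b1, the oxysterol 7-alpha-hydroxylase, carried 2 weak peaks deep inside the gene, with window edges 17339 and 145133 bp from the TSS and folds of 3.60 and 3.12. The other bile acid P450 genes, Cyp7a1, Cyp8b1, Cyp27a1 and Cyp39a1, had none. Nor did the 6 P450 genes of steroid hormone synthesis, Cyp11a1, Cyp11b1, Cyp11b2, Cyp17a1, Cyp19a1 and Cyp21a1, or Cyp51, the sterol 14-alpha-demethylase. These sets are small, and only 17 of all 98 Cyp genes (17.3%) had a listed peak, against 24.7% of all protein-coding genes.

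**Figure D1:**
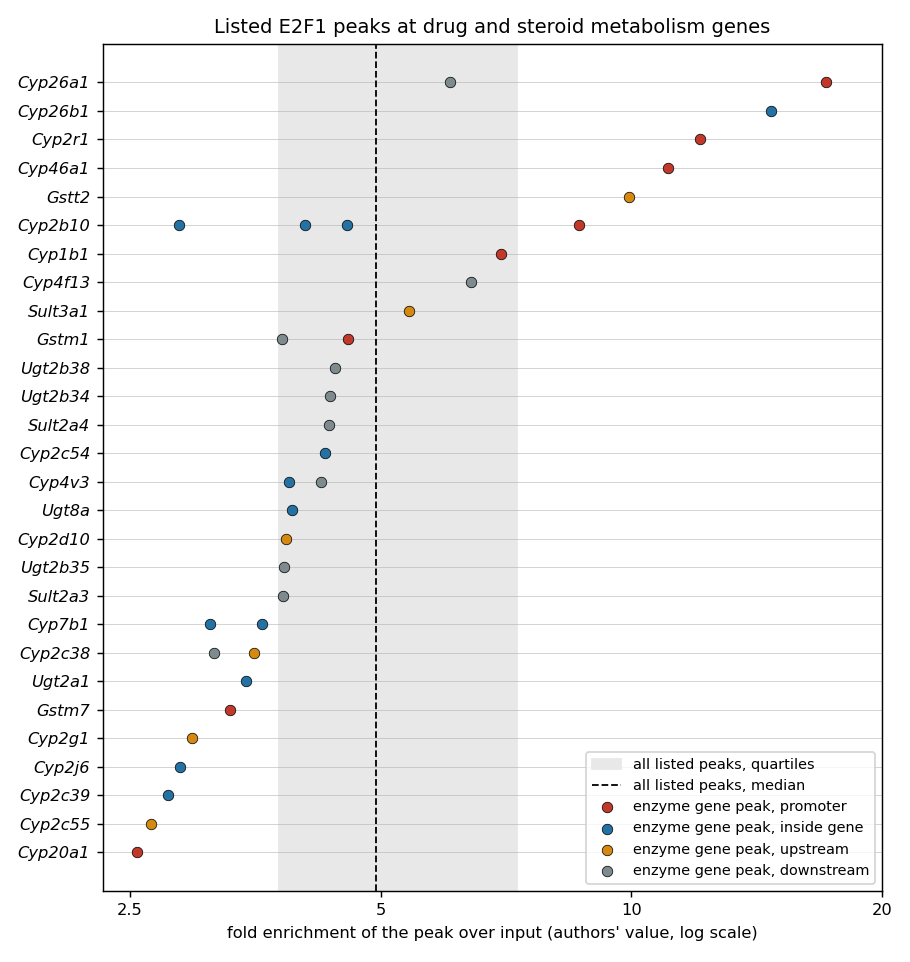
Fold enrichment over input (log scale) of each of the 36 peaks named for the 28 enzyme genes; each point is 1 peak, coloured by the authors' class, and genes are ordered by their highest fold. The grey band spans the quartiles of all 5667 listed peaks (3.77 to 7.28) and the dashed line is their median, 4.93; the peaks of Cyp26a1, Cyp26b1, Cyp2r1 and Cyp46a1 reach folds above 10, and most others lie left of the median.

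Among P450 genes of drug metabolism, Cyp2b10 had by far the most peaks. Cyp2b10 is the classical phenobarbital-induced gene, switched on by the receptor CAR. Its promoter peak had a fold of 8.66 and 263 tags (chromosome 7, 26682447 to 26682747), with the summit 42 bp upstream of the TSS. Inside the gene followed peaks with folds of 2.86, 4.06 and 4.56, whose summits stood 1899, 3359 and 23443 bp downstream of the TSS. Fold was highest at the promoter, and the far peak held 249 tags, close to the 263 of the promoter peak. With 4 peaks within 23.8 kb, Cyp2b10 stood among the 54 genes of the list with at least 4 peaks (0.965% of the listed gene identifiers). The peaks at 1899 and 3359 bp were also named for Gm6434, a gene farther away. The other Cyp2b genes, Cyp2b9, Cyp2b13, Cyp2b19 and Cyp2b23, had no listed peak.

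Cyp1b1, which oxidises estrogens and polycyclic hydrocarbons, had a fold of 6.97 with 56 tags (chromosome 17, 80114826 to 80115126), 574 bp upstream of the TSS. Cyp1a1 and Cyp1a2, the other targets of the dioxin receptor in this family, had none. Neither did Cyp2e1, the 4 Cyp2a genes or the 9 Cyp3a genes, which include the main drug-oxidising P450s of the liver.

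The Cyp2c genes carried 5 peaks spread over 4 of their 15 members, all weak and none at a promoter. These genes form an array on chromosome 19, and their peaks spanned 1050 kb. Folds were 4.29 inside Cyp2c54, 3.52 upstream of Cyp2c38, 3.15 at the end of Cyp2c38, 2.78 inside Cyp2c39 and 2.65 upstream of Cyp2c55. Each was below the list's median of 4.93. By contrast Hells, a chromatin helicase gene next to Cyp2c55 in the RefSeq gene order, had a fold of 10.90 at its own promoter. The Cyp2c55 window edge lay 8120 bp upstream of the Cyp2c55 TSS. Hells was picked out after its value had been seen, as was Zfp472, a zinc finger gene next to Cyp4f13 with a promoter fold of 10.43. Cyp2d10, of the subfamily of human CYP2D6, had a fold of 3.85 at 16483 bp upstream, the only listed peak among 8 Cyp2d genes.

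Other P450 peaks lay at genes of fatty acid oxidation and at little-studied members. Cyp4f13, of a family of fatty acid omega-hydroxylases, had a fold of 6.42 with 71 tags at its 3′ end (chromosome 17, 33061551 to 33061851). Cyp4v3 had folds of 4.24 past its end and 3.88 inside the gene, both peaks being shared with Klkb1, the prekallikrein gene beside it. Cyp2j6, of the arachidonic acid epoxygenases, had a fold of 2.87 inside the gene, with a false discovery rate of 8.22%. Cyp2g1, known from olfactory tissue, had a fold of 2.97 at 9450 bp upstream. Cyp20a1, a P450 without an established substrate, had the lowest fold of the 36, 2.55, although the peak held 236 tags. Its called region of 3042 bp covered the TSS while its summit lay 1439 bp upstream, so the promoter class of the authors and the 1000 bp limit part ways here too.

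**Figure D2:**
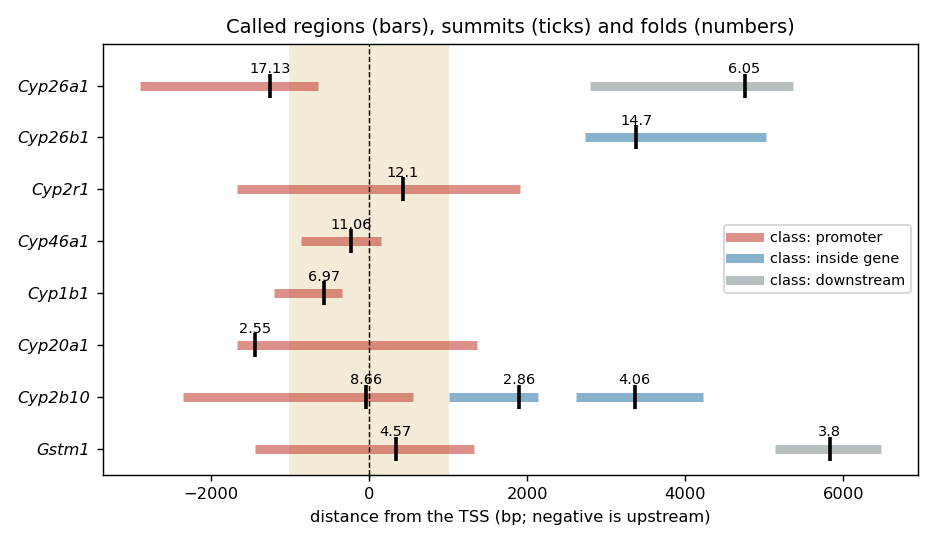
Called regions (bars, coloured by the authors' class), summits (ticks) and folds (numbers) of peaks near the TSS of 8 enzyme genes, plotted by distance from the TSS in bp with upstream negative; the shaded band is 1000 bp to each side. The strong Cyp26a1 and Cyp26b1 summits, at 1249 bp upstream and 3383 bp downstream, fall outside the band, while those of Cyp2r1, Cyp46a1, Cyp1b1, Cyp2b10 and Gstm1 fall inside it.

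The conjugating enzymes held 12 of the peaks, and only glutathione S-transferases had them at promoters. Of the 18 Gst genes 2 had a promoter peak (11.1%, exact binomial interval 1.38% to 34.7%). That share was near the 13.1% of all protein-coding genes, which lies inside the interval. Gstm1, the main mu-class transferase of mouse liver, had a fold of 4.57 with 207 tags, with the summit 335 bp inside the gene (chromosome 3, 107820407 to 107820707). A further peak at its 3′ end had a fold of 3.80. Gstm7, of the same array, had a window that held its TSS, with a fold of 3.30, 128 tags and a false discovery rate of 8.22%, near the highest rate in the list, 8.57%. The other 5 Gstm genes had no listed peak. Gstt2, of the theta class, had the strongest peak of this group, with a fold of 9.93, 280 tags and a rate of 0.10%, and its window edge lay 2363 bp upstream of the TSS (chromosome 10, 75299990 to 75300290). The 4 Gsta and 3 Gstp genes had none.

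No glucuronosyltransferase or sulfotransferase gene had a promoter peak, but the exact binomial 95% intervals of 0 of 22 and 0 of 21 genes reach 15.4% and 16.1% and so include the 13.1% of all protein-coding genes. Of 22 Ugt genes, 5 had a peak (22.7%, near the 24.7% of all protein-coding genes), with folds from 3.44 to 4.41. Ugt2b34, Ugt2b35 and Ugt2b38, which conjugate steroids and drugs, had theirs 16029, 18725 and 14465 bp past the gene, with folds of 4.35, 3.83 and 4.41. Inside genes lay the peak of Ugt2a1, with a fold of 3.44, and that of Ugt8a, which makes the galactosylceramide of myelin, with 3.91 at 46082 bp from the TSS. None of the 9 Ugt1 genes was listed. Of 21 Sult genes, 3 had a peak (14.3%, interval 3.05% to 36.3%). The hydroxysteroid sulfotransferase genes Sult2a3 and Sult2a4 had folds of 3.82 and 4.33 at 2766 and 5354 bp past the gene, and Sult3a1 had 5.41 with 38 tags, the fewest of the 36 peaks, at 12996 bp upstream. The 6 Sult1 genes, which sulfate phenols and estrogens, had none.

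None of the 7 Fmo genes and none of the 19 Ces genes had a listed peak. The exact binomial interval of the Fmo share reaches 41% and so includes the 24.7% of all protein-coding genes. That of the Ces share stops at 17.6%, below 24.7%, with genes treated as independent draws. For promoter peaks the limits are the same, and both intervals include the 13.1% of all protein-coding genes. Absence from the list does not show that a gene was unbound, since 13241 of the peak caller's serial numbers up to 18908 are not in it. Serial numbers follow position along each chromosome, which shows where such gaps fall. Between the outer peaks of the Cyp2c array 19 numbers were used and 5 listed, and in the Ugt2 array 12 were used and 4 listed. Within Cyp2b10 2 unlisted numbers fell between its peaks. In the Sult2a and Gstm arrays no number was missing between the outer listed peaks.

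**Figure D3:**
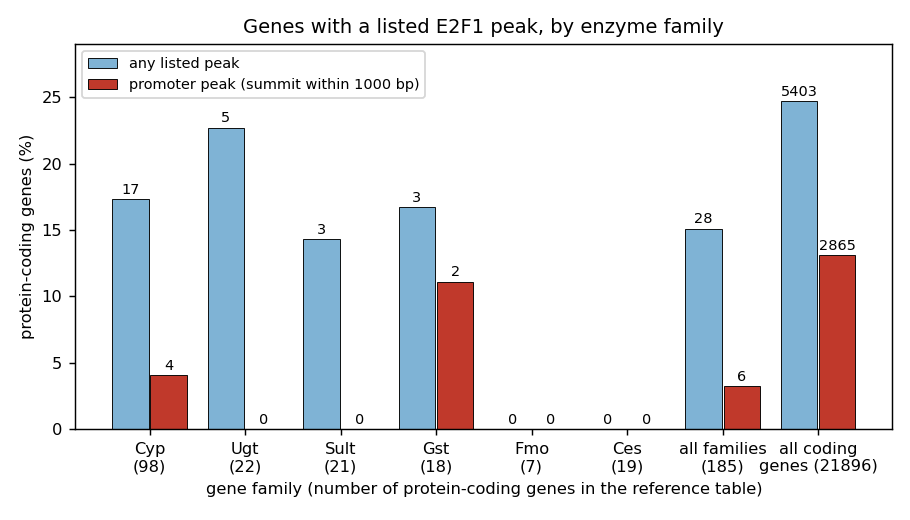
Share of protein-coding genes (%) in each enzyme family with any listed peak (blue) and with a promoter peak (red), with gene numbers above the bars; the rightmost pair is all 21896 protein-coding genes of the reference table. Over all families 28 of 185 genes had a peak and 6 a promoter peak, and Ugt, Sult, Fmo and Ces show no promoter peak.

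Set beside the whole list, the 36 peaks had a lower median fold and a smaller share at promoters; these differences were not tested. Their median fold was 3.98 (quartiles 3.40 and 5.57), against 4.93 (3.77 and 7.28) over all 5667 peaks. The enzyme gene peaks had a median of 123.5 tags, a pileup height of 36.5 and a false discovery rate of 3.40%, against 149 tags, a height of 45 and a rate of 1.84% over all peaks. A fold of at least 10 was reached by 4 of the 36 peaks (11.1%), against 12.8% of all peaks, a share near that of the list. Promoters held 6 of the 36 (16.7%), against 46.1% of all peaks. Within promoter peaks alone the median fold was 7.81 for the 6 enzyme gene peaks and 6.48 for all 2612. Away from promoters it was 3.87 for 30 enzyme gene peaks and 4.07 for all 3055. The median was thus higher than that of the list among promoter peaks and lower among the others. By the authors' own classes, 10 of the 36 peaks (27.8%) lay downstream of their gene, against 8.68% of all peaks assigned to their closest gene. Inside genes lay 12 (33.3%), against 35.9%, and upstream 6 (16.7%), against 8.82%. The 36 were classed by their enzyme gene whether or not it was the closest, so these shares are not fully alike. The downstream Cyp4v3 peak, for instance, lay inside Klkb1. The peaks were on 12 chromosomes, with 8 on chromosome 7 and 7 on chromosome 19. Many of these genes have near-identical relatives, and no source used here says how reads that match several copies were placed. Whether reads of relatives add to single peaks in the Cyp2c, Ugt2, Sult2a and Gstm arrays was not tested.

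**Figure D4:**
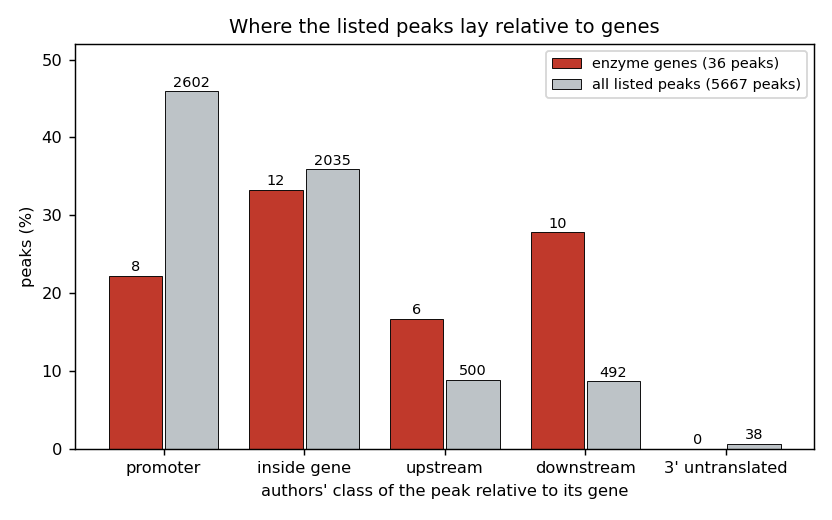
Share of peaks (%) in each of the authors' location classes, with peak numbers above the bars. Red (left) shows the 36 enzyme gene peaks, each classed by its enzyme gene whether or not that was the closest. Grey (right) shows all 5667 listed peaks by their closest gene. The enzyme gene peaks are 22.2% promoter and 27.8% downstream, against 45.9% and 8.68% in the whole list.

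The E2F consensus was searched as 4 words, TTTCCCGC, TTTCGCGC, TTTGCCGC and TTTGGCGC, on both strands of the RefSeq promoter windows; words may overlap. Windows were found for 24 of the 28 genes, not for Cyp2c54, Cyp2g1, Cyp7b1 and Gstt2. None of the 24 held a word, nor did any of the 150 genes of these families that have a window, against 3.29% of 17491 protein-coding genes and 9.47% of those with a promoter peak. The words occurred in 2.26% of all 32851 windows. After these counts had been seen, the words were shortened to 7 letters by dropping the first T, which leaves TTCCCGC of the first word and the like of the others. Then 2 of the 24 genes held one, Cyp46a1 and Cyp2b10, both among the 6 with a promoter peak, against 13.7% of protein-coding genes and 9.57% of all windows. That is 33.3% of the 6, close to the 30.5% of all protein-coding genes with a promoter peak. Of the 150 family genes with a window 5 held a word (3.33%), and 3 of these were among the 126 without a listed peak (2.38%), so the word was not confined to promoters with a peak. The word in Cyp46a1 and Cyp2b10 is the one in capitals above. It began 129 bases before the RefSeq start in Cyp46a1 and 74 bases before it in Cyp2b10. The summits of these genes lay 227 and 42 bp, in that order, before the starts used by the authors. The windows do not reach the summits of Cyp2r1 and Gstm1, 428 and 335 bp inside the gene, or of Cyp1b1, 574 bp upstream. Sequence at those summits was not searched. A match is a stretch of letters and not a shown binding site.

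The promoters also differed in base composition. CpG content is given as the observed over the expected number from the base counts of the 300 bases. The median was 0.552 for the 6 genes with a promoter peak and 0.194 for the 18 others with a peak elsewhere, against 0.824 for all protein-coding genes with a promoter peak and 0.565 for all protein-coding genes. In the 126 genes of these families without a listed peak it was 0.158. The median share of G and C was 57.2% in the 6, 44.0% in the 18 and 46.9% in the 126. Among the 6, Cyp46a1 had a ratio of 0.972, Cyp2r1 0.710 and Cyp1b1 0.642. The others were lower: Gstm1 had 0.568 and 0.357 at its 2 RefSeq starts, Gstm7 had 0.282 and 0.352 at its 2 starts, and Cyp2b10 had 0.192. Outside the 6, Cyp26a1 had 0.894, and Ugt8a had 0.974 and its listed peak lay far inside the gene.

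**Figure D5:**
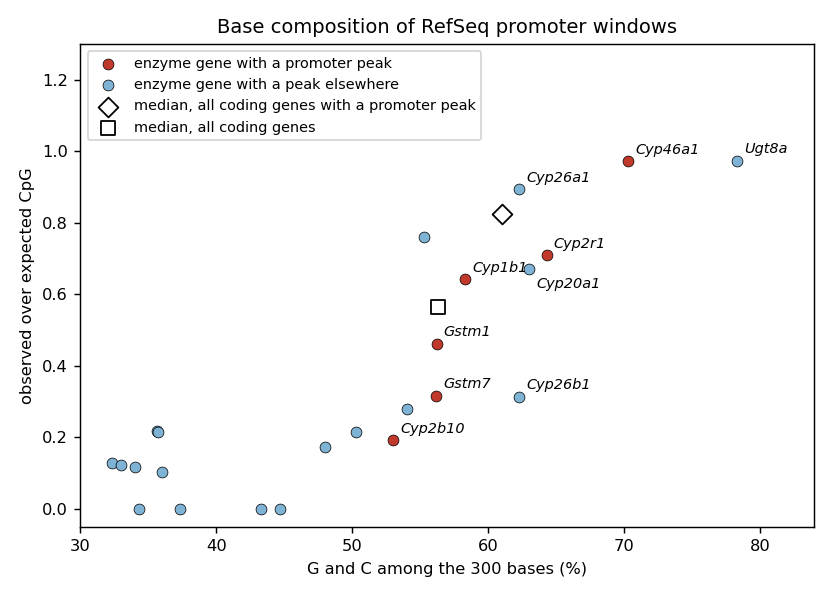
Share of G and C (%) against the observed over expected CpG ratio in the RefSeq promoter windows of 24 enzyme genes with a listed peak, red where the peak was at the promoter and blue where it was elsewhere (median over starts where a gene has several). The diamond and square are the medians of all protein-coding genes with a promoter peak (0.824) and of all protein-coding genes (0.565); Cyp2b10 is the red point with the lowest CpG ratio, 0.192.

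Other genes of the same pathways came from lists of 5 kinds. Of 27 further oxidation, reduction and hydrolysis enzymes, 10 had a peak and 1 a promoter peak, at Nqo1, a quinone reductase (fold 6.04). Higher folds in this list were 10.01 past the end of Akr1a1 and 7.63 at Maoa. The Maoa peak was in the authors' promoter class, with its window edge 1007 bp from the TSS. Of 22 further conjugation and glutathione genes, 11 had a peak and 3 a promoter peak. These were Gclm, a subunit of the enzyme that starts glutathione synthesis (5.12), Mgst1, a microsomal glutathione transferase (4.58), and Gstz1 of the zeta class (4.44). Among 18 sensors of foreign compounds and their partners, 9 had a peak and 1 a promoter peak, at Nr0b2, the gene of the repressor SHP (4.98). Hnf4a, a master regulator of hepatocyte genes, carried 3 peaks inside the gene, the strongest with a fold of 10.08. Neither CAR (Nr1i3), PXR (Nr1i2) nor Ahr, the dioxin receptor, had a listed peak.

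Of 19 drug and bile acid transporters, 5 had a peak and none a promoter peak. Abcc2, the canalicular conjugate exporter, had 4 peaks inside the gene with folds from 2.90 to 3.60. Of 28 enzymes of steroid and bile acid metabolism other than P450s, 6 had a peak and 3 a promoter peak. Fdxr, ferredoxin reductase, which passes electrons to mitochondrial P450s, had a fold of 7.50 at its promoter. A further Fdxr peak, with its window edge 13951 bp upstream of the TSS, had a higher fold, 8.12. At their promoters Srd5a1, a steroid 5-alpha-reductase, had 5.02 and Hsd17b7, which acts in cholesterol and estrogen synthesis, 4.37. The shares with any peak in the 5 lists ran from 21.4% to 50%, and those with a promoter peak from 0% to 13.6%, set beside 24.7% and 13.1% of all protein-coding genes.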

How the data were processed

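The series holds ChIP and input DNA of infected mouse hepatocytes, 1 record each. The submitters' processing notes list Bowtie2 (2.1.0) and mm9/NCBIM37; the column names show MACS, per the file headers, but no source used here states its version, its settings or whether replicates were pooled. The authors deposited, per peak, the count of tags in the region, the pileup height as a signal, the fold as a ratio over input, a score (negative log10 of the caller's p, times 10) and a false discovery rate in percent. A further deposited score column, explained nowhere, was not used. These values belong to 1 peak each and served to describe and rank peaks.

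A window of 301 bp is centred on each summit, with the distance of its edge from the TSS. A TSS position was rebuilt from that distance and the gene's strand; in all 625 genes with several such distances, a single TSS resulted. Downstream classes carry a distance to the gene end. Symbols were matched to a RefSeq gene table (assembly GRCm38.p6) by symbol or unique synonym, 5492 of 5587, and peak coordinates stayed on mm9. 2 further genes of these families and lists are not reported here. Python 3.11.15, pandas 2.3.3 and scipy 1.17.1 were used, and the word search was tested on simulated data. Every enzyme gene with a peak was named; other genes were named if they stood in the pathway lists and had a peak, or shared a peak with an enzyme gene. Outside that rule, genes without a listed peak were named to show which members of a family, subfamily or list had none, and Hells and Zfp472 were named for their values. Members and lists were chosen with earlier results of these data known. Alternatives changed the promoter width, the peak threshold and the gene assignment.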

Additional observations from a re-analysis of the deposited data

How the results depend on the processing

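With promoters widened to 5000 bp the enzyme genes with a promoter peak numbered 10 and their promoter peaks 12, in place of 6 and 6; the added genes were Cyp20a1, Cyp26a1, Cyp26b1 and Gstt2. Of all listed peaks 54.6% then lay at promoters. With the 2833 peaks of highest score, 13 enzyme genes kept a peak (7.03% of 185, against 14.4% of all protein-coding genes). The median fold of their peaks was 6.42. No median over all 2833 peaks was computed, so 6.42 cannot be set beside the 4.93 of the whole list. Promoters of 500 bp, the authors' promoter class, a false discovery rate of at most 5% and the closest gene only left these 4 values within 1.5 times, or, for the median, within its interval of 3.60 to 4.56; promoter genes then ranged from 5 to 8. At a rate of at most 5%, 26 of the 36 peaks and 21 of the enzyme genes remained (11.4%, against 19.7% of all protein-coding genes). Cyp2c39, Cyp2c55, Cyp2d10, Cyp2j6, Cyp7b1, Gstm7 and Ugt8a then had no peak. The interval of the median rests on the 36 peaks of 1 list, some of them at the same gene or array. It holds no replicate error. The E2F words shortened to 7 letters, chosen after seeing the data, were found in 2 genes in place of 0. No paired analysis was possible because there is 1 peak list and no value per replicate. Depth per library is unknown, so the precision of single folds is not known.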
